A study of Mus musculus with 4 samples.

Results

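Lactate dehydrogenase subunits and lactate transporters are described here through 6 genes: Ldha, Ldhb, Ldhd, Slc16a1, Slc16a3 and Bsg. The genes were listed by symbol, and a probe set was taken where the platform annotation gives it exactly 1 of these symbols. Of the 6 genes, 5 had such a probe set, among 12393 genes with a probe set of their own on the array. Ldhb had 4 probe sets, Ldha, Slc16a1, Slc16a3 and Bsg had 1 each, and Ldhd, a mitochondrial enzyme that uses D-lactate, had none and was not analysed here. The probe set with the highest mean signal stood for its gene.

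RNA came from the gastrocnemius, a mostly fast calf muscle, of mice aged 6 weeks, and was hybridised to 4 Affymetrix arrays. The control group, called non-transgenic or wild-type in the labels, holds 2 arrays of littermates without the transgene, here also called controls. The MCK-PPARb group holds 2 arrays of littermates that overexpress PPARbeta, the nuclear receptor encoded by Ppard, in muscle only. MCK names muscle creatine kinase, whose promoter is active in differentiated muscle fibres, so the transgene is directed to fibres. Indirect effects on the other cells of the tissue were not tested. The labels do not give the strain, the founder line, the sex or any treatment. The titles speak of biological replicates, but the design text does not settle whether each array is a separate mouse. If they are not, p-values measure only a spread that may be technical.

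Lactate dehydrogenase is a tetramer of A and B subunits that interconverts pyruvate and lactate. The A subunit (gene Ldha) prevails in fast glycolytic muscle, and the B subunit (gene Ldhb) in heart and slow oxidative fibres. Lactate crosses the cell membrane through monocarboxylate transporters. The Slc16a1 protein is found mainly in oxidative fibres, which take lactate up, and the Slc16a3 protein mainly in glycolytic fibres, which export it. Both need basigin, the product of Bsg, to reach the membrane.

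The arrays shared a trimmed mean, and their median signals lay between 431 and 513 units. Non-transgenic replicate 1 stood apart among bright probe sets, the top 10 of which held 4.20% of all signal, against 2.36% to 2.78% on the other arrays. Differences of the members and of the genes of smallest p in the glycolytic and fibre lists are therefore also given without that array. Ppard read 2169 and 2825 in the controls and 126049 and 98796 in the transgenic muscles (log2 difference 5.49, SE 0.22, n = 2 per group, limma, adjusted p = 0.000187), which goes with the labels. The muscle genes Ckm, Acta1 and Des, which encode muscle creatine kinase, skeletal actin and desmin, read between 68249 and 258580 on all 4 arrays.

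In MCK-PPARb muscle the Ldhb signal was higher and the signals of Slc16a3, Ldha and Bsg were lower than in non-transgenic muscle on both arrays, while the groups overlapped for Slc16a1. The log2 differences, MCK-PPARb minus non-transgenic, were 0.78 ± 0.21 for Ldhb, -0.99 ± 0.19 for Slc16a3, -0.62 ± 0.26 for Ldha, -0.45 ± 0.19 for Bsg and 0.0060 ± 0.19 for Slc16a1 (SE, n = 2 per group). None of the 5 members passed limma's test at an adjusted p under 0.05 over 11313 probe sets, a threshold that 0.731% of 6841 genes passed, 0.409% higher and 0.322% lower. At an unadjusted p under 0.05 there were 4 members of 5, where 10.9% of all genes stood. Without non-transgenic replicate 1 there were 2, Ldhb and Slc16a3, and without MCK-PPARb replicate 1 or 2 there were 2 and 1. The groups did not overlap for 4 members, 3 lower and 1 higher, while 42.9% of all genes did not overlap, 20.8% lower and 22.2% higher. An exact permutation test of 2 arrays against 2 cannot give a p below 0.333.

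**Figure D1:**
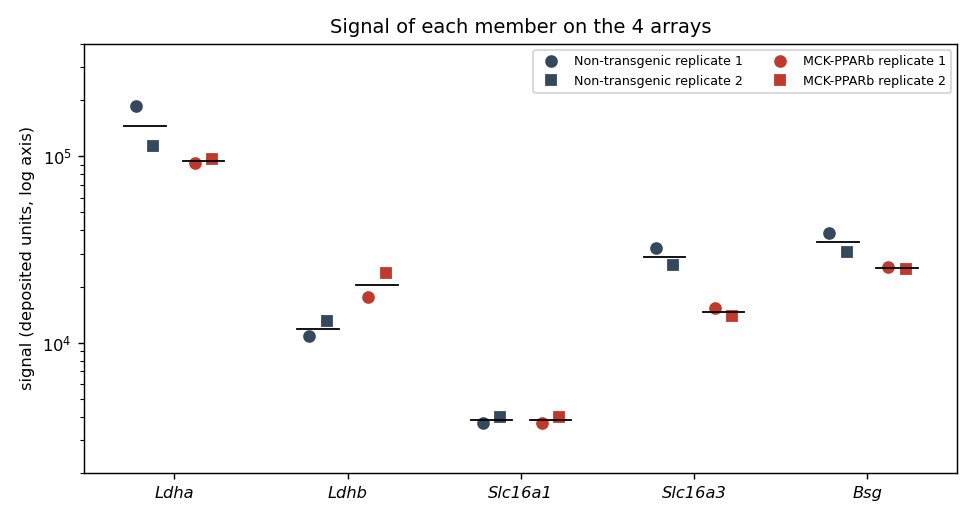
Signal of the 5 measured members on each of the 4 arrays, on a log axis, with a line at each group's mean on the log scale. Both MCK-PPARb arrays lie above both non-transgenic arrays for Ldhb and below them for Ldha, Slc16a3 and Bsg, and the groups overlap for Slc16a1.

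Ldhb encodes the B subunit. Its gene spans chr6:142490249-142507957 on the minus strand of GRCm38.p6. The brightest of its probe sets, 1448237_x_at, read 10836 and 13036 in the controls and 17637 and 23547 in the transgenic muscles. Both transgenic arrays were above both controls, and the transgenic arrays differed more between themselves than the controls did. The fitted change was 1.71-fold (log2 0.78, 95% interval 0.28 to 1.28, limma, adjusted p = 0.232). It had the 268th highest difference of 6841 genes. Without MCK-PPARb replicate 2, the array with the highest Ldhb signal, the log2 difference was 0.57. Without non-transgenic replicate 1 it was 0.64.

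The other 3 probe sets of Ldhb gave the same direction. Probe set 1416183_a_at read 9963 and 10419 in the controls and 13073 and 18476 in the transgenic muscles, a log2 difference of 0.61 ± 0.22. Probe set 1434499_a_at read 7190 and 7217 against 11276 and 14667, a log2 difference of 0.84 ± 0.20. Probe set 1455235_x_at read 4725 and 6361 against 9279 and 15497, a log2 difference of 1.13 ± 0.28. Their adjusted p in limma ran from 0.160 to 0.354, and 0.601% of all probe sets passed. All 4 probe sets read highest on MCK-PPARb replicate 2, and none had overlapping groups. They sample the same RNA, so they are repeat readings of 1 gene and not replicates of the condition. The suffix _x_at marks probe sets in which some probes can match other transcripts, and the 2 without it gave 0.61 and 0.84.

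**Figure D2:**
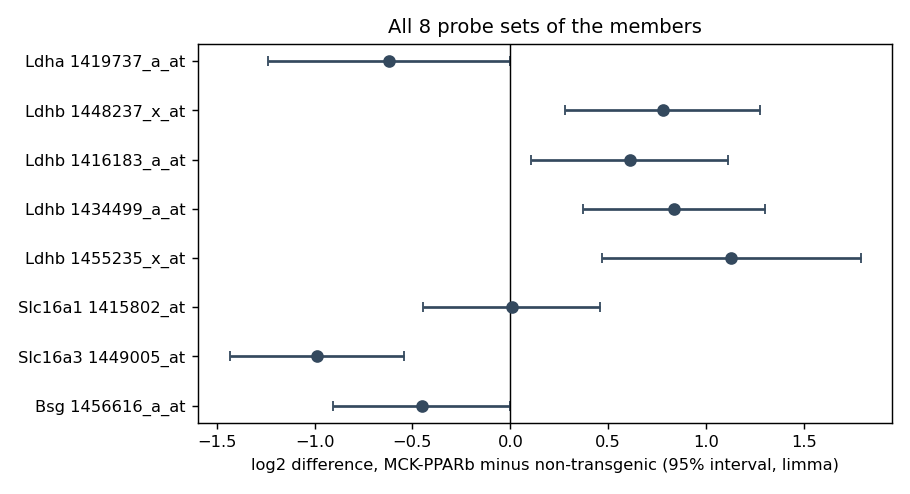
Log2 difference in signal, MCK-PPARb minus non-transgenic, for all 8 probe sets of the members, with 95% intervals from limma (n = 2 per group, not adjusted for the number of probe sets). The 4 Ldhb probe sets run from 0.61 to 1.13, the Slc16a3 probe set is at -0.99, and the intervals of Ldha and Bsg end just below 0.

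The stretch before the annotated start of Ldhb is shown because this is the member whose signal was higher. RefSeq's promoter table of GRCm38.p6 has 1 window for Ldhb. The 250 bases before the start are chr6:142507958-142508207 on the minus strand, with capitals marking AGGTCA, the core that nuclear receptors such as PPARs bind, here in its reverse complement.

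Ldhb: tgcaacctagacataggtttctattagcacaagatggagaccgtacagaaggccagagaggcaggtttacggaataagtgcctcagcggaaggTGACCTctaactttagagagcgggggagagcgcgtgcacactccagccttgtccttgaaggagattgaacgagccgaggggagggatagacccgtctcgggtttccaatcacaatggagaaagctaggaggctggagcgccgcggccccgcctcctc

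The single match begins 157 bases before the start. The table's windows are 300 bases long and also hold the bases after the start. On either strand, 16.3% of 32851 such windows hold AGGTCA, so its presence here is a description and no evidence of binding. The paired form to which PPARs bind with their partner RXR, AGGTCANAGGTCA, has no match in the Ldhb window and is in 0.0396% of all windows. The MEF2 element, searched because MEF2 factors act in muscle, has none in it either and is in 3.19% of all windows.

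Ldha encodes the A subunit, and its gene spans chr7:46842274-46855627 of GRCm38.p6. Its probe set, 1419737_a_at, was among the brightest on every array and read 185972 and 113408 in the controls and 92372 and 96509 in the transgenic muscles. Both transgenic arrays were below both controls, but the controls differed more from each other than the lower one did from the transgenic arrays. The signal was 1.54-fold lower (log2 -0.62, 95% interval -1.24 to -0.0028, limma, adjusted p = 0.470). With quantile normalization the log2 difference hardly changed when non-transgenic replicate 1 was left out, from -0.38 to -0.39. In the signals as deposited, its size rested on non-transgenic replicate 1, which was brighter among bright probe sets. Without it the log2 difference was -0.26 (adjusted p = 0.588), with quantile normalization it was -0.38, and without non-transgenic replicate 2 it was -0.98 and passed (adjusted p = 0.0175, with the lone control array assumed to vary like the others). Over all 17 alternatives that gave a value, adjusted p ran from 0.0175 to 0.915.

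Slc16a3 encodes the lactate exporter of glycolytic fibres, and its gene spans chr11:120948484-120959000 of GRCm38.p6. Among the probe sets that stood for the members, its difference was the largest in size. Its probe set, 1449005_at, read 32066 and 26138 in the controls and 15395 and 13852 in the transgenic muscles. Here the gap between the groups was wider than the spread within either. The signal was 1.98-fold lower (log2 -0.99, 95% interval -1.43 to -0.54, limma, adjusted p = 0.0939). It had the 114th lowest difference of 6841 genes. Without non-transgenic replicate 1 the log2 difference was -0.84 (adjusted p = 0.0841), and without non-transgenic replicate 2 it was -1.13 and passed (adjusted p = 0.0205, with the lone control array assumed to vary like the others). Over its 18 alternatives adjusted p ran from 0.0117 to 0.484, and all of them kept the direction.

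Slc16a1 encodes the transporter of oxidative fibres, and its gene spans chr3:104638664-104658462 of GRCm38.p6. Its probe set, 1415802_at, read 3690 and 3995 in the controls and 3714 and 4002 in the transgenic muscles. The controls and the transgenic arrays covered the same range. The log2 difference was 0.0060 with a 95% interval of -0.45 to 0.46, which leaves room for a modest change in either direction. Its sign turned under several alternatives, for example to -0.051 without non-transgenic replicate 1.

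Bsg encodes basigin, the partner that carries both transporters to the membrane, and its gene spans chr10:79704358-79711979 of GRCm38.p6. Its probe set, 1456616_a_at, read 38739 and 30650 in the controls and 25601 and 24748 in the transgenic muscles. Both transgenic arrays were below both controls, and non-transgenic replicate 1 was again the highest. The signal was 1.37-fold lower (log2 -0.45, 95% interval -0.91 to -0.0011, limma, adjusted p = 0.470). Without non-transgenic replicate 1 the log2 difference was -0.28 (adjusted p = 0.592).

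The rank of a probe set among all 22626 on its array does not change when the array is multiplied by a factor. Ldha was the 17th and 12th brightest on the control arrays and the 37th and 28th on the transgenic ones. Slc16a3 went from ranks 291 and 387 to 650 and 756, and Bsg from 231 and 309 to 377 and 419. Ldhb stood the other way, going from ranks 974 and 814 to 568 and 436. Slc16a1 ranked 2669 and 2480 in the controls and 2625 and 2474 in the transgenic muscles. In rank as in signal, the groups were apart for Ldha, Ldhb, Slc16a3 and Bsg and overlapped for Slc16a1.

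The ratio of Ldhb to Ldha signal sets the heart-type subunit against the muscle-type subunit on the same array, so that a factor common to both genes cancels. The probe sets differ in brightness for the same amount of RNA, so the ratio says nothing of the share of subunits, and only its change between arrays is read. It was 5.83% and 11.5% on the control arrays and 19.1% and 24.4% on the transgenic ones. The groups did not overlap, and the control with the lower ratio was replicate 1. The mean log2 ratio was -3.61 ± 0.69 in non-transgenic and -2.21 ± 0.25 in MCK-PPARb muscle (SD, n = 2), a 2.64-fold difference in the mean (log2 1.40, exact permutation test, two-sided, p = 0.333, the smallest it can give). Between single arrays the ratio was 1.66- to 4.19-fold higher in MCK-PPARb muscle. Without non-transgenic replicate 1 the log2 difference was 0.91. With the other Ldhb probe sets it was 1.23, 1.46 and 1.75.

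The ratio of Slc16a1 to Slc16a3 signal sets the transporter of oxidative fibres against the exporter of glycolytic ones. It was 11.5% and 15.3% on the control arrays and 24.1% and 28.9% on the transgenic ones. Again both transgenic arrays were above both controls. The mean log2 ratio was -2.91 ± 0.29 in non-transgenic and -1.92 ± 0.18 in MCK-PPARb muscle (SD, n = 2), a 1.99-fold difference (log2 0.99, exact permutation test, two-sided, p = 0.333). Of this, Slc16a3 made up 0.99 and Slc16a1 0.0060. The log2 difference was 0.79 without non-transgenic replicate 1.

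**Figure D3:**
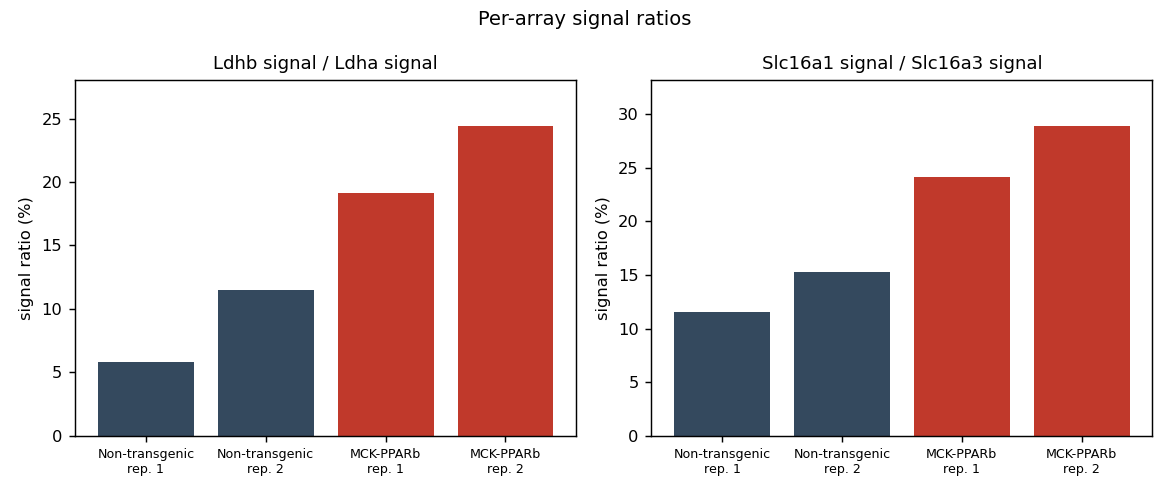
Ratio of Ldhb to Ldha signal (left) and of Slc16a1 to Slc16a3 signal (right), in percent, 1 bar for each array. On the MCK-PPARb arrays the ratios are 19.1% and 24.4% on the left and 24.1% and 28.9% on the right, above both non-transgenic arrays in each case.

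Basigin was also set against each transporter, a pair of ratios chosen after the values were seen. Bsg to Slc16a3 was 121% and 117% in the controls and 166% and 179% in the transgenic muscles, so the exporter's signal was lower by more than that of its partner. Bsg to Slc16a1 was 1050% and 767% in the controls and 689% and 618% in the transgenic muscles. For each ratio the groups did not overlap, and the exact permutation test gave p = 0.333.

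Short stretches before the starts of Ldha and Slc16a3, whose signals were lower, and of Slc16a1 are shown for the motif they share, ACGTG, the core bound by hypoxia-inducible factors, which are known to act on Ldha and Slc16a3. Capitals mark it on either strand, and CACGTG, the E-box bound by Myc and related factors, contains it on both. The motifs were chosen after the sequences were seen. Bsg has no window in the RefSeq promoter table.

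Ldha chr7:46845647-46845676: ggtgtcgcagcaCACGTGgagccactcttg
Ldha chr7:46845750-46845779: agcctaCACGTGggttcccgCACGTccgct
Slc16a3 chr11:120949034-120949063: gcggtgACGTGcgcgggggACGTGccgcgc
Slc16a1 chr3:104638452-104638481: gcggcgccgggtCACGTGgcgggaaggggg

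All are on the plus strand of GRCm38.p6 and end before the start of their window's transcript. The Ldha and Slc16a3 windows lie within the annotated span of their genes. The first Ldha window holds 5 matches to ACGTG counted on each strand, the Slc16a3 window 2 and the Slc16a1 window 3, and the Ldhb window shown above holds none. The second Ldha window, chr7:46846832-46847131, also holds none. Of all windows, 19.6% hold ACGTG and 7.15% hold CACGTG. Slc16a1, whose groups overlapped, holds the motif as well as Ldha and Slc16a3, whose signals were lower.

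By the distance between log2 profiles over the 4 arrays, each centred on its own mean, the genes nearest to Ldhb were Grb14, Gtf2ird1 and Idh2, at 0.054, 0.11 and 0.12. Grb14 encodes an adaptor of the insulin receptor and Idh2 mitochondrial isocitrate dehydrogenase. The nearest to Slc16a3 were Gpt2, an alanine aminotransferase, H2az1, a histone variant, and Plpp7, at 0.11, 0.15 and 0.17. The nearest to Ldha were Vwa7, Pygm, which encodes muscle glycogen phosphorylase, and Popdc2, at 0.079, 0.10 and 0.12. For Bsg they were Efhd1, Pxn and Dusp19, and for Slc16a1 Ctcf, Rnf5 and Rbbp7, at 0.0064 to 0.053. With 4 arrays these are descriptions only.

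Relatives of the members were mostly dim. Of 18 listed lactate dehydrogenase, monocarboxylate transporter and accessory genes, 8 had a probe set and 1, Slc16a11, exceeded the signal filter. Ldhc, the testis subunit, read at most 98.5 in 1 probe set and 330 in the other. Emb, which encodes embigin, another partner of the transporters, read 281 to 593 in its brighter probe set. Slc16a7, a further pyruvate and lactate transporter, read 7.40 to 23.2. Slc16a11 read 1164 and 240 in the controls and 1055 and 948 in the transgenic muscles, with overlapping groups. It stood at 0.92, and 1 control array decided this value, which was 2.06 and passed without non-transgenic replicate 1 (limma, adjusted p = 0.0494) and -0.22 without non-transgenic replicate 2. Slc5a8, also listed, read 214.5 and 155.6 in the controls and 55.5 and 26.3 in the transgenic muscles. Below the filter, at 444 units, sizes of differences are uncertain and were not tested in the main fit. With no filter all 8 relatives were fitted, with a median log2 difference of 0.54, and none passed in limma.

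Among the enzymes that make pyruvate, none of 12 measured genes of the main glycolytic chain passed in limma over all genes, and 1 stood at an unadjusted p under 0.05. Their median log2 difference was -0.27, where the median of all genes tested was 0.011, with 9 lower and 3 higher. The median turned to 0.032 without non-transgenic replicate 1, was -0.11 with quantile normalization, and was -0.51 without non-transgenic replicate 2, where 2 genes, Aldoa, aldolase, and Pgk1, passed. Pgk1, phosphoglycerate kinase, read 138430 and 93613 in the controls and 68206 and 83668 in the transgenic muscles (log2 -0.59, adjusted p = 0.461). Pkm, pyruvate kinase, was at -0.43, Pgam2, phosphoglycerate mutase, at -0.39 and Hk2, hexokinase, at -0.27. Leaving out non-transgenic replicate 1 brought Pgk1 to -0.31, Pkm to -0.10, Pgam2 to -0.11 and Hk2 to -0.29. The list's summed signal was 1054060 on non-transgenic replicate 1 and 658016 to 678937 on the other 3 arrays.

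Among genes of mitochondrial pyruvate use, none of 9 measured passed in limma, with 3 at an unadjusted p under 0.05 and a median of 0.013. Pdk4, the kinase that shuts off pyruvate dehydrogenase, read 18338 and 20094 in the controls and 40918 and 37141 in the transgenic muscles (log2 1.02 ± 0.18, limma, adjusted p = 0.0699). Its log2 difference was 0.96 and 1.09 without non-transgenic replicate 1 or 2, and 0.95 and 1.09 without MCK-PPARb replicate 1 or 2. Pdk1, a kinase of the same family, was at 0.63, Pcx, pyruvate carboxylase, at -0.61 and Dld, a subunit of the dehydrogenase complex, at -0.48. Mpc1, a subunit of the mitochondrial pyruvate carrier, read 44546 and 44238 against 42887 and 45422, with overlapping groups.

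The NADH shuttles share their cytosolic cofactor with lactate dehydrogenase. Of 7 measured genes, 1 fell, 0 rose and 6 did not pass, and the median was -0.27, with the same single call when any 1 array was left out. Gpd2, the mitochondrial enzyme of the glycerol phosphate shuttle, fell from 4692 and 4801 to 1058 and 983 (log2 -2.22 ± 0.21, limma, adjusted p = 0.00705). Gpd1, its cytosolic partner, read 17930 and 17090 against 9910 and 8326 (log2 -0.95, adjusted p = 0.0939). Slc25a11, the mitochondrial oxoglutarate carrier, was at -0.34 and Got1, cytosolic aspartate aminotransferase, at -0.27.

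Of 13 measured regulators linked to these genes, 1 rose, the overexpressed Ppard itself, 0 fell and 12 did not pass, with a median of 0.33. Mef2d, a muscle transcription factor, read 8867 and 6816 in the controls and 14256 and 11261 in the transgenic muscles (log2 0.70, adjusted p = 0.288). Hif1a, the hypoxia-inducible factor subunit, read 1495 and 1521 against 2178 and 2946 (log2 0.75, adjusted p = 0.319). Ppara, the related receptor, was at 0.98 with a control at 462, close to the filter level (adjusted p = 0.411). Ppargc1a, a coactivator known to raise Ldhb in muscle, read 2495 and 2450 against 2541 and 2224, with overlapping groups.

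Fibre markers were set beside the subunits, since both differ between fibre types. None of 11 measured slow fibre genes passed in limma, with 6 higher and 1 lower at an unadjusted p under 0.05 and a median log2 difference of 0.67. With non-transgenic replicate 1 left out it stood at 0.45 and 2 passed, Myl2 and Casq2, and with non-transgenic replicate 2 left out at 1.25 and 6 passed. Myl2, slow myosin light chain, read 16355 and 24471 in the controls and 51382 and 62406 in the transgenic muscles (log2 1.50, adjusted p = 0.0540). Casq2, slow and cardiac calsequestrin, was at 1.60, Tnnc1, slow troponin C, at 1.13 and Tnni1, slow troponin I, at 1.10. Leaving out non-transgenic replicate 1 brought Myl2 to 1.21, Casq2 to 1.29, Tnnc1 to 0.91 and Tnni1 to 0.76. Myh7, slow myosin heavy chain, read 7612 and 17024 in the controls and 17671 and 18456 in the transgenic muscles (log2 0.67, limma, adjusted p = 0.563). Its higher control was thus close to the transgenic arrays. Myl3, a further slow myosin light chain, was at 0.20 with overlapping groups. Not all pointed this way. Mb, myoglobin, named after its values were seen, read 87332 and 81671 in the controls and 55956 and 60881 in the transgenic muscles (log2 -0.53, adjusted p = 0.347), and Tpm3 and Ckmt2, at -0.16 and -0.037, overlapped. None of 13 measured fast fibre genes passed in limma, with 0 at an unadjusted p under 0.05 and a median of -0.29. That median turned to 0.14 without non-transgenic replicate 1 and was -0.0023 with quantile normalization, while without non-transgenic replicate 2 it was -0.73 and 4 genes passed. Myl1, fast myosin light chain, was at -0.47, Pvalb, parvalbumin, at -0.43, and the troponins Tnnt3 and Tnnc2 at -0.39 and -0.38. All 4 overlapped between the groups, and leaving out non-transgenic replicate 1 brought them to -0.026, -0.0077, 0.010 and 0.096. The summed signal of the fast list was 2646840 on non-transgenic replicate 1 and 1495520 to 1721550 on the other arrays. This array was likewise the highest for Ldha, for the glycolytic sum and for the muscle genes Ckm, Acta1 and Des. It was the lowest for all 4 Ldhb probe sets and for the summed slow list, at 232653 against 271322 to 329649. Of the slow genes, Mb and Ckmt2 did not read lowest on it. The fast gene Myh2 read lower on it than on the other control, 92204 against 104423.

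**Figure D4:**
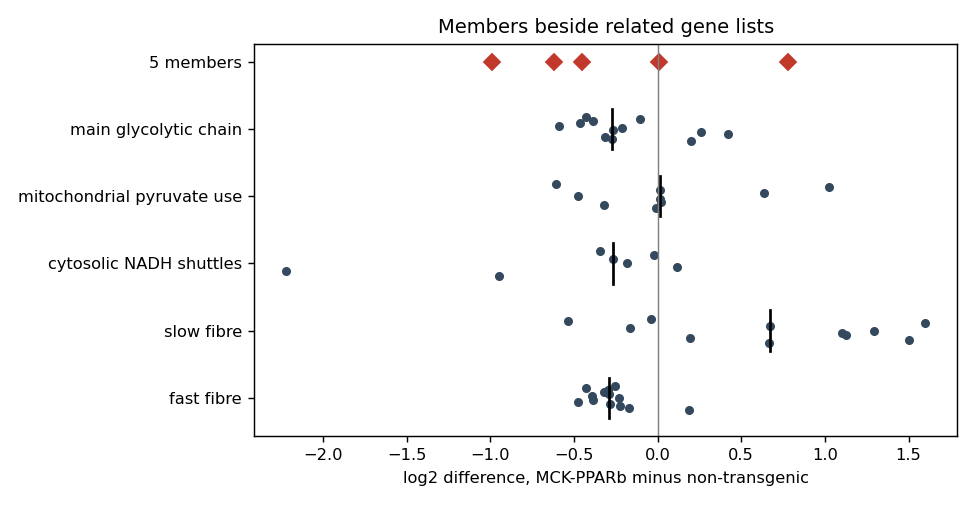
Log2 difference in signal, MCK-PPARb minus non-transgenic, of the 5 members (diamonds) and of the measured genes of 5 lists (points, with a bar at each list's median). The glycolytic and fast fibre medians are at -0.27 and -0.29, the slow fibre median is at 0.67 (without non-transgenic replicate 1 they are at 0.032, 0.14 and 0.45), and Slc16a3 at -0.99 and Ldhb at 0.78 lie at the ends of the members' range.

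Members were also expressed as a share of the summed fibre signals of their own array, a measure chosen after the values were seen. Ldha stood at 7.03% and 7.58% of the fast sum in the controls and at 5.37% and 6.29% in the transgenic muscles, a log2 difference of -0.33. Slc16a3 stood at 1.21% and 1.75% against 0.894% and 0.902%, a log2 difference of -0.70. Against the fast sum the groups were apart for both genes, while those of Bsg, at 1.46% and 2.05% against 1.49% and 1.61%, overlapped. Ldhb stood at 4.66% and 4.80% of the slow sum in the controls and at 6.15% and 7.14% in the transgenic muscles, a log2 difference of 0.49. Each of these comparisons without overlap has an exact permutation p of 0.333.

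Some of the members are also transcribed in cells other than fibres, and in bulk tissue fewer cells of a type and less RNA per cell cannot be told apart. Red cells hold Bsg, and 2 of 6 erythroid markers on the array exceeded the filter. Alas2, of haem synthesis, was at 0.17 and Hbb-b2, a globin gene, at -0.011. The globin genes Hba-a1 and Hba-a2 read 21.2 to 200 in probe sets annotated to 1 gene only. Probe sets annotated to several genes were not used, and 6 of 11 listed erythroid genes had one of their own. These low readings thus do not show that red cells were absent. The summed erythroid signal was 1953 to 2705 in non-transgenic and 2303 to 2400 in MCK-PPARb muscle. White cells hold Slc16a3. Of 12 leukocyte markers 7 exceeded the filter, and Ptprc, the pan-leukocyte antigen, read 114 to 225. The sum over the 12 was 9173 to 10077 in non-transgenic and 10630 to 10798 in MCK-PPARb muscle. The part of white cells in the Slc16a3 difference was not tested. Adgre1, a macrophage receptor, was at 0.83, Cd14 at 0.56, Tyrobp at 0.45 and Lyz2 at -0.25, and none passed. All 9 endothelial markers exceeded the filter, with summed signals of 13224 to 15614 and 13330 to 13462 and differences of -0.52 for Emcn, -0.34 for Tie1, -0.23 for Cdh5 and 0.23 for Kdr.

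The 4 Schwann cell markers above the filter read higher on both MCK-PPARb arrays than on both controls, where 22.2% of all genes did. The 2 below it did not. Their summed signal over 6 genes, most of it from Pmp22 and Mbp, was 18797 to 20571 in non-transgenic and 31303 to 34990 in MCK-PPARb muscle, with log2 differences of 0.96 for Mbp, 0.75 for Ncmap, 0.67 for Pmp22 and 0.29 for Sox10. Close to the filter level or below it, Mag read 463 and 460 in the controls and 447 and 398 in the transgenic muscles, and S100b read 150 and 128 against 221 and 23.9. None of the 4 tested passed, and without non-transgenic replicate 1 Mbp did. Of 7 adipocyte markers on the array, 4 exceeded the filter. Adipoq was at 1.03, Retn at 1.02, Fabp4 at -0.23 and Car3, which muscle fibres also express, at -1.46, and none passed, though Car3 did without either control array and without MCK-PPARb replicate 1. Of those below the filter, Lep read 55.7 to 131 and Cidec 61.3 to 340. Ucp1, also below it, read 59.1 and 28.9 in the controls and 391 and 447 in the transgenic muscles. The summed adipocyte signal, most of it from Car3, was 102636 to 112117 in non-transgenic and 38670 to 59087 in MCK-PPARb muscle. The part of Schwann cells, fat cells or fibre types in the Ldhb difference was not tested.

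**Figure D5:**
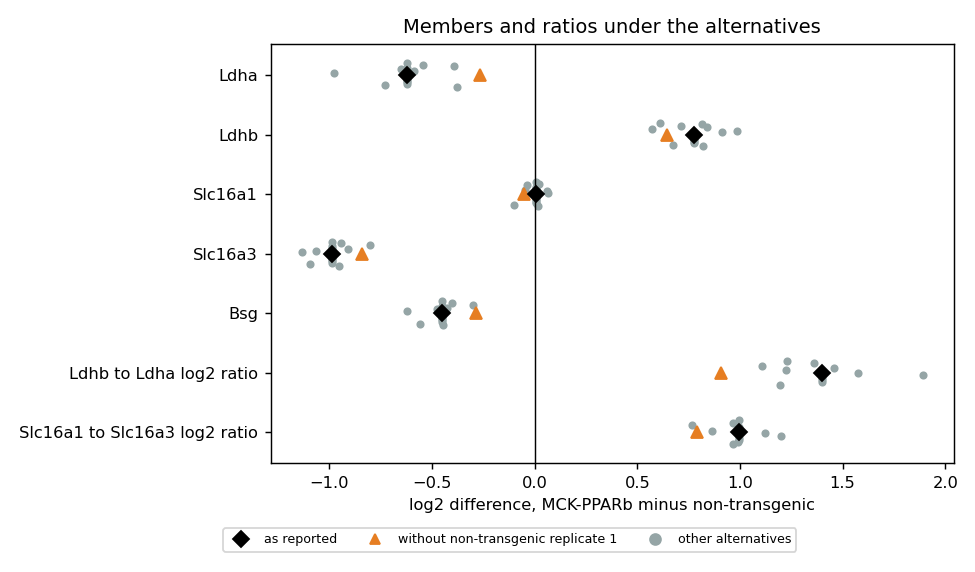
Log2 differences of the 5 members and of both log2 ratios as reported (diamonds), without non-transgenic replicate 1 (triangles) and under the other alternatives (points). The sign holds throughout for Ldha, Ldhb, Slc16a3, Bsg and both ratios, Ldha ranges from -0.98 to -0.26, and Slc16a1 lies on both sides of 0.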

How the data were processed

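The authors deposited a linear signal intensity for each probe set. The submitters' processing notes name MAS5 and GCOS. Versions, scaling target and detection calls are not given in the sources consulted. Trimmed means were equal across arrays, which had thus been scaled together. Probe sets named to 1 gene had symbols updated through the gene number (GRCm38.p6 table).

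Of 22626 probe sets without controls, the 11313 whose mean log2 signal over the 4 arrays exceeded the median (444 units) were tested with limma 3.58.1 in R 4.3.3, with an intensity trend and Benjamini-Hochberg adjustment. No pseudocount was added. A change is called at an adjusted p under 0.05. Ratios were tested with an exact permutation test over the arrays. The number of arrays limits the precision. The fit was tested on simulated data.

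The members and lists were chosen with earlier results of these data known. Named genes are the members, up to 4 genes of smallest p in each list, the 3 nearest profiles of each member and Ppard. Mpc1, Ppargc1a, Mb, Tpm3, Ckmt2, Myh7, Myl3, Myh2, the dim relatives and the markers that read low were added after their values were seen. Alternatives were median centring, quantile normalization, a pseudocount of 33.9, signals raised to the filter level, other filters, other variance models, a replicate block, each array left out, other probe set rules and a threshold of 0.1. Cyclic loess, quantile normalization without non-transgenic replicate 1, and leaving out the suffixes _s_at and _x_at alone were added after seeing the data.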

Additional observations from a re-analysis of the deposited data

How the results depend on the processing

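The signs of Ldha, Ldhb, Slc16a3, Bsg and both ratios held under every alternative that gave them a value, which leaving out an array could not change where the groups did not overlap. The Ldhb to Ldha log2 ratio ran from 0.91 to 1.89 and the Slc16a1 to Slc16a3 log2 ratio from 0.76 to 1.20. Slc16a1, at 0.0060, turned to -0.10 with median centring and to -0.039 with quantile normalization without non-transgenic replicate 1, and ran from -0.051 to 0.063 with an array left out. Median centring moved the median of all genes from 0.011 to -0.095. The count of called members, 0, became 1 at an adjusted p under 0.1 and ran from 0 to 2 with an array left out. Ldha then ran from -0.98 to -0.26 and Slc16a3 from -1.13 to -0.84. The count of called probe sets, 68, became 150 at an adjusted p under 0.1, 116 with median centring and 21 without the intensity trend, and ran from 45 to 194 with an array left out.

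The labels number the arrays of both groups alike but do not say that a number marks a shared litter or day. Deviations from the group means correlated at 0.28 between arrays of the same number. With the replicate block 377 probe sets and 2 members were called, Ldhb (log2 0.78, limma, adjusted p = 0.0440) and Slc16a3 (-0.99, adjusted p = 0.0117). The block changed no other call among the members. Leaving out the suffixes _s_at, _x_at and _a_at together left no probe set of Ldha, Ldhb or Bsg. With 2 arrays a group, calls rest on the spread pooled over genes.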
